A study of Arabidopsis thaliana with 6 samples.

Results

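The genes described here carry the names of gene families of the auxin pathway and were chosen by name. They are all genes whose symbol is IAA, ARF, PIN, LAX, GH3. or SAUR followed by a number and for which a probe set naming that gene and no other was found. A gene with such a probe set is called measured here, which held for 14276 genes. The rule gave 13 of these: IAA18, IAA20, IAA29, IAA30, IAA31, IAA33 and IAA34 of the Aux/IAA family, GH3.1, GH3.3, GH3.9 and GH3.17 of the GH3 family, LAX3 and SAUR21. Such a symbol is carried by 77 entries of the reference gene table, so that 7 of 24 Aux/IAA, 4 of 5 GH3, 1 of 3 LAX and 1 of 16 SAUR entries were covered. The SAUR entry counts by its symbol alone, since the study's annotation describes that locus as another kind of protein. None of the 22 ARF and 7 PIN entries had a named probe set, and both families were not analysed here. The probe set of each member came from the platform annotation, except those of LAX3 and SAUR21, which took their names from a list the study made of H2O2-responsive genes.

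Wild-type Arabidopsis plants of the Col-0 ecotype were grown in hydroponic culture, and total RNA from whole rosettes (entire shoots) was hybridized to ATH1 arrays. The salt group received 150 mM NaCl in the medium for 4 d, the control group received medium without NaCl, and each group had 3 arrays, described as independent biological replications. The labels give an age of 28 days, which the study describes as the age at the start of the salt treatment. All values are log2 expression after robust multiarray averaging (RMA) by the authors, differences are salt minus control, and a difference of 1 is a 2-fold change. How many plants went into each array is not given in the sources used here.

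Auxin (indole-3-acetic acid, IAA) is perceived by F-box receptors that bind Aux/IAA proteins and mark them for degradation. This frees the ARF transcription factors, which Aux/IAA proteins otherwise hold inactive. Aux/IAA, GH3 and SAUR genes are the classical groups of rapidly auxin-induced genes. GH3 enzymes join auxin or other acidic hormones to amino acids, AUX1 and LAX proteins carry auxin into cells, PIN proteins carry it out, and SAUR proteins are small and mostly promote cell expansion. In leaves the pathway is best known for its part in growth, vein formation and the timing of senescence.

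The arrays were not equally alike. Control arrays correlated with each other at 0.993 to 0.997 over all probe sets that are not controls, salt replicates 2 and 3 at 0.988, and salt replicate 1 with these at 0.983 and 0.980, so that values without salt replicate 1 are given for the members described in detail. The probe set for the large ribosomal RNA of the cytosol was at 7.16 to 7.84 in control and 9.05 to 10.24 in salt arrays. That for 5S ribosomal RNA did not rise, with 5.90 to 6.99 in control and 5.04 to 6.71 in salt arrays. All 5 measured leaf mesophyll markers were lower on average in salt arrays (-1.44 to -0.26) and 3 of them fell, among them the Calvin cycle gene SBPASE. The 5 measured root markers, EXPA7, EXPA18, PRP3, NRT2:1 and CASP1, had differences of -0.19 to -0.09, and 0 passed the test by limma (1 at an unadjusted p under 0.05). Both measured guard cell markers fell, MYB60 with -1.32 and FMA with -0.62. Over all genes 12.3% fell. Of 12 listed mesophyll, 12 root and 5 guard cell markers, 5, 5 and 2 were measured. The flower marker SEP3 (-0.17) and the shoot meristem marker CLV3 (-0.06) did not pass, at dim mean signals of 4.19 and 4.53. No listed marker of vessels or of dividing cells had a probe set naming that gene alone. The part of these differences in the results below was not tested.

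With salt, 3 members rose (GH3.3, GH3.17 and IAA18), 3 fell (GH3.9, IAA29 and LAX3) and 7 did not pass. The words rose and fell are used here for an adjusted p under 0.05 by limma, with the Benjamini-Hochberg method applied over all 14276 genes. Over all genes 11.4% rose and 12.3% fell, 23.7% in either direction. GH3.3, GH3.17, LAX3 and SAUR21 are on the study's list of H2O2-responsive genes, of which 45.9% passed and 34.4% rose. Without salt replicate 1 the test again called 3 members higher and 3 lower, the same 6 genes. With 13 members, the shares that rose and fell are not read as a property of the pathway. The control and salt arrays did not overlap for the 6 members that passed and overlapped for the 7 that did not, against 42.7% of all genes without overlap. GH3.3 was the only member at least 2-fold higher (5.32% of all genes) and 0 were at least 2-fold lower (2.68% of all genes). The median difference was 0.10 over the members and -0.03 over all genes. In whole rosettes, fewer cells of a type and less RNA per cell cannot be told apart.

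**Figure D1:**
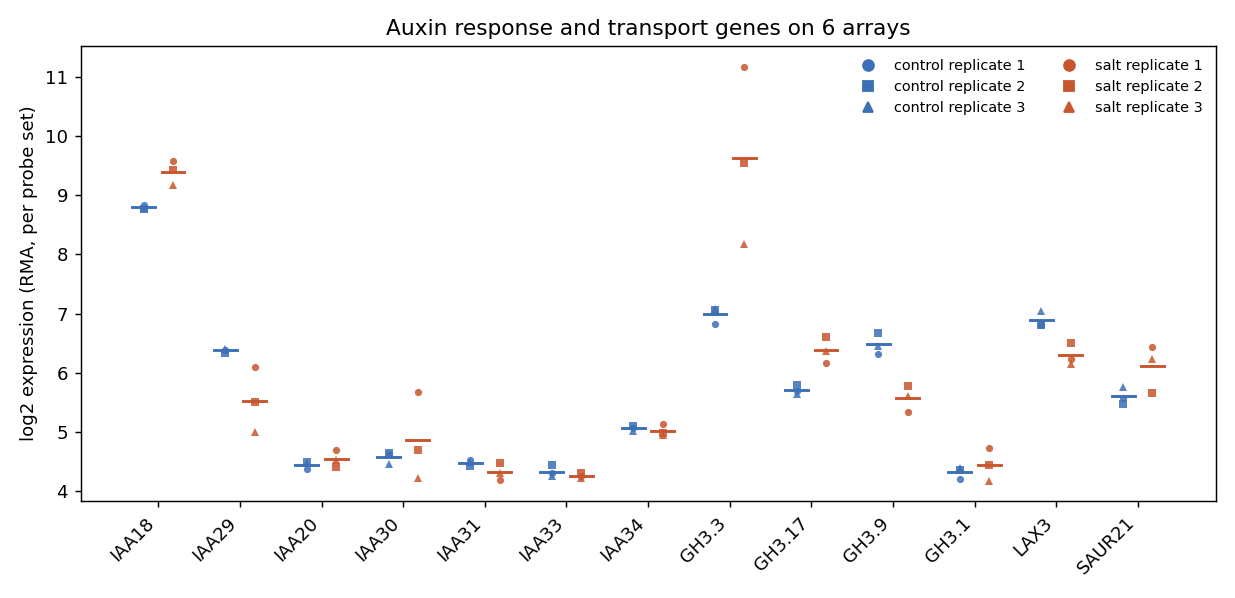
Log2 expression (RMA) of the 13 members on each of the 6 arrays, with control arrays in blue, salt arrays in orange, a marker shape for each replicate number and a horizontal line at the mean of each group. The salt values of GH3.3 spread from 8.17 to 11.17, all above its control values, whereas IAA20, IAA31, IAA33, IAA34 and GH3.1 lie at 5.13 or lower in every array.

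Among the 13 members and with all 6 arrays, the GH3 family held the largest rise and the largest fall, although IAA29 (-1.13) fell further than GH3.9 (-0.79) without salt replicate 1. GH3.3 encodes an enzyme that conjugates IAA to amino acids, and it is known as an early auxin-induced gene. Its log2 values were 6.82, 7.06 and 7.08 in control replicates 1, 2 and 3 and 11.17, 9.55 and 8.17 in salt replicates 1, 2 and 3. Each salt array lay above each control array, and the salt arrays differed from each other by more than the lowest of them did from the controls. The difference of 2.64 (SE 0.66) corresponds to a 6.25-fold higher mean, with a 95% confidence interval of 1.08 to 4.21 on the log2 scale (adjusted p = 0.0289 from limma). The SD among salt arrays was 1.5 (n = 3), the 21st largest of 14276 genes, whereas the control SD was 0.145 (n = 3). Without salt replicate 1 the difference was 1.87 and without salt replicate 3 it was 3.37, and both passed. The call was lost without control replicate 1, 2 or 3 or salt replicate 2 (adjusted p = 0.061 to 0.0992 from limma), with differences of 2.56 to 2.69.

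GH3.17, which encodes an enzyme that conjugates IAA to glutamate, rose by a smaller amount. Its values were 5.69, 5.80 and 5.65 in control and 6.17, 6.61 and 6.37 in salt replicates 1, 2 and 3. The groups were apart by 0.67 (SE 0.12, adjusted p = 0.0112 from limma), a 1.59-fold higher mean. The difference stayed between 0.56 and 0.78 with 1 array left out, was 0.78 without salt replicate 1, and missed the threshold once control replicate 1 was omitted (adjusted p = 0.0535 from limma).

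GH3.9 belongs to the same group of IAA-conjugating enzymes and is known for its part in primary root growth. It went the other way. Control values were 6.31, 6.68 and 6.45, and salt values were 5.33, 5.78 and 5.61, so that every salt array lay below every control array. The difference was -0.91 (SE 0.15, adjusted p = 0.00713 from limma), a 1.87-fold lower mean. This call held with each array left out in turn (-1.01 to -0.79), including -0.79 without salt replicate 1. GH3.1, the remaining GH3 member, had 4.21, 4.36 and 4.40 in control and 4.73, 4.45 and 4.18 in salt arrays. Its groups overlapped, and the difference of 0.13 had a 95% confidence interval of -0.22 to 0.48 and turned to -0.01 without salt replicate 1. Over the 4 GH3 members the median difference was 0.40.

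**Figure D2:**
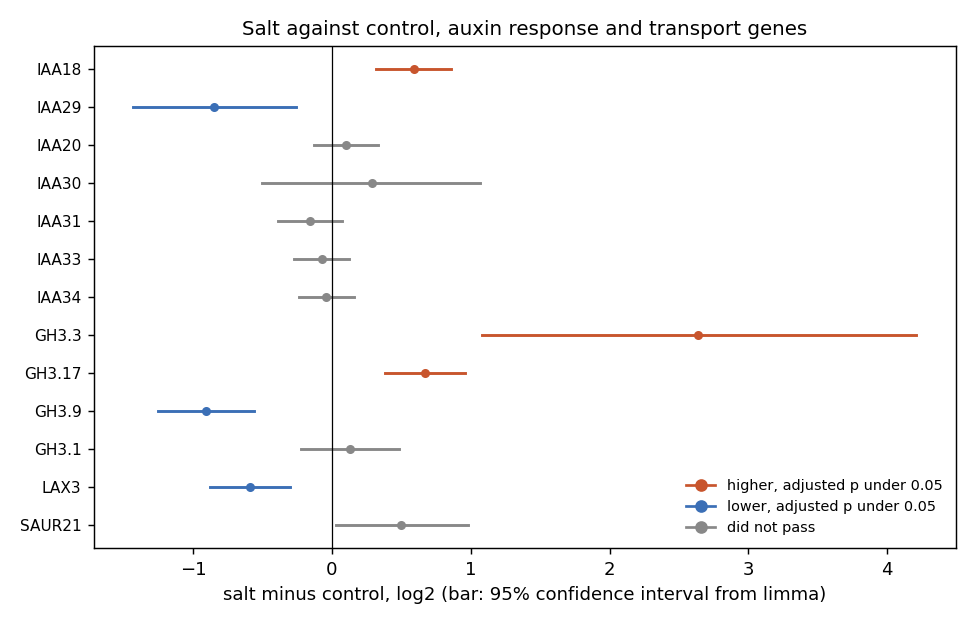
Salt minus control difference in log2 expression for the 13 members (points) with the 95% confidence interval from limma (bars), coloured by whether the gene rose, fell or did not pass. GH3.3 (2.64) stands furthest from 0 and has the widest interval, and the other 5 members that passed lie between -0.91 and 0.67.

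Among the Aux/IAA repressors 1 member rose, 1 fell and 5 did not pass, and the median difference over the 7 was -0.04. IAA18, best known from dominant mutants with altered embryos and lateral roots, rose. It had 8.84, 8.77 and 8.79 in control and 9.57, 9.42 and 9.17 in salt replicates 1, 2 and 3. The control arrays were close together, and all 3 salt arrays were above them. The difference was 0.59 (SE 0.11, adjusted p = 0.0129 from limma), a 1.5-fold higher mean, and 0.49 without salt replicate 1. Without control replicate 1 or 2 the call was lost (adjusted p = 0.0535 and 0.0605 from limma).

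IAA29, which is known to be induced in shade by PIF transcription factors, fell. Its control values of 6.38, 6.34 and 6.41 were close together, and its salt values of 6.09, 5.50 and 5.00 were spread below them. The difference was -0.85 (SE 0.25, adjusted p = 0.0486 from limma), a 1.8-fold lower mean. It lay close to the threshold and depended on which arrays were used. Without salt replicate 1 it was -1.13 and passed, and without salt replicate 3 it was -0.58 and did not (adjusted p = 0.0639 from limma). The call was lost as well without salt replicate 2 or any control array (adjusted p = 0.0996 to 0.136 from limma).

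The other 5 Aux/IAA members, IAA20, IAA30, IAA31, IAA33 and IAA34, are known as atypical members in which the degron recognized by the auxin receptors is missing or altered. Their differences were 0.10, 0.29, -0.16, -0.07 and -0.04, and none passed. For IAA20, IAA31, IAA33 and IAA34 the confidence intervals reached no further than -0.39 and 0.33, so that a 2-fold change of these signals lies outside them. IAA30 had 4.63, 4.64 and 4.46 in control and 5.67, 4.69 and 4.23 in salt replicates 1, 2 and 3. Salt replicates 1 and 2 lay above the control values, the latter only just, and salt replicate 3 below them. Without salt replicate 1 the difference was -0.12 instead of 0.29. All 5 genes, and GH3.1, had a mean signal below 5.45, the 30th percentile of all probe sets.

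LAX3 encodes an auxin influx carrier that is best known for lateral root emergence and also acts in shoots. It was the only measured member of the transport families. LAX3 had 6.81, 6.80 and 7.05 in control and 6.24, 6.50 and 6.15 in salt replicates 1, 2 and 3. Each salt array was below each control array. The gene fell by 0.59 on the log2 scale (difference -0.59, SE 0.12, adjusted p = 0.0161 from limma), a 1.51-fold lower mean. Without salt replicate 1 the difference was -0.56 and passed, whereas the call was lost without control replicate 1, 2 or 3 (adjusted p = 0.0531 to 0.0551 from limma).

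The gene that the reference table calls SAUR21 is AT5G01830. The study's annotation describes this locus as a U-box protein with armadillo repeats, which is not what a SAUR protein is, so its value is not read as that of the SAUR family. It had 5.58, 5.48 and 5.76 in control and 6.44, 5.66 and 6.23 in salt replicates 1, 2 and 3. Salt replicate 2 lay within the control range and the other salt arrays above it. The difference was 0.50 (95% confidence interval 0.03 to 0.98, adjusted p = 0.115 from limma). It was 0.34 without salt replicate 1, and 0.73 without salt replicate 2, where it passed (adjusted p = 0.0111 from limma).

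**Figure D3:**
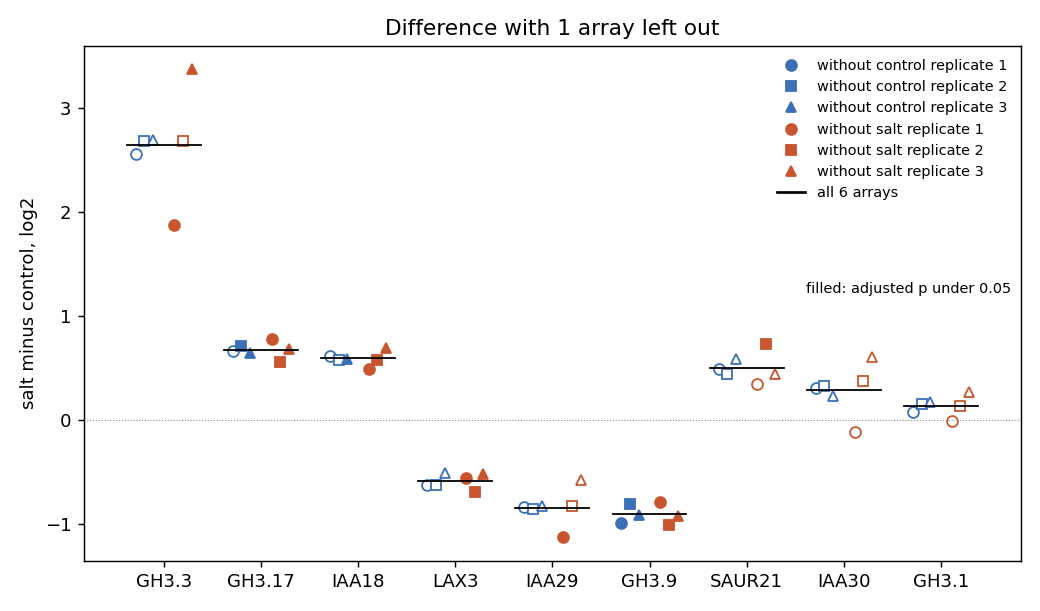
Salt minus control difference in log2 expression of 9 members with all 6 arrays (black line) and with each array left out in turn (blue for a control array, orange for a salt array, with a marker shape for each replicate number). Filled symbols have an adjusted p under 0.05. GH3.9 passed in all 6 cases, and for GH3.3 the difference moved from 1.87 without salt replicate 1 to 3.37 without salt replicate 3.

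The members varied more among salt arrays than among control arrays. The SD was larger in salt for 12 of 13 members, against 74.6% of all genes, for which the median SD was 0.0862 in control and 0.156 in salt arrays. Only IAA33 had the larger SD in control. Beside GH3.3, IAA30 (SD 0.735 in salt, n = 3) and IAA29 (SD 0.546 in salt, n = 3) varied more among salt arrays than 98.1% and 95.4% of all genes. Salt replicate 1 was the highest salt array for 8 members and salt replicate 2 for 5, and over all genes these shares were 36.4% and 31.2%. In 6 members, GH3.1, GH3.3, IAA18, IAA29, IAA30 and IAA34, salt replicate 1 was the highest and salt replicate 3 the lowest of the salt arrays, against 19.9% of all genes. Of these, GH3.3 and IAA18 rose, so that salt replicate 1 was furthest from their control values, and IAA29 fell, so that salt replicate 1 was nearest to its control values.

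A further 12 measured genes carry a name of these families only as a synonym. Of these, WES1 and PBS3 of the GH3 family rose, AXR3 of the Aux/IAA family and 2 of 9 SAUR genes fell, and 7 did not pass. The shares over all genes were 11.4% for a rise and 12.3% for a fall. WES1 (GH3.5) encodes an enzyme that conjugates IAA and salicylic acid. It had 7.03, 7.16 and 7.38 in control and 8.55, 8.14 and 8.28 in salt arrays, a difference of 1.13 (SE 0.14, adjusted p = 0.00253 from limma) that was 1.02 or more with 1 array left out. PBS3 (GH3.12), which acts in salicylic acid synthesis and not on auxin, had 7.01, 6.53 and 7.43 in control and 8.84, 9.05 and 8.11 in salt arrays. Its difference was 1.68 (SE 0.30, adjusted p = 0.00981 from limma). The probe set of PBS3 was named only through the list of H2O2-responsive genes.

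AXR3 (IAA17), an Aux/IAA repressor whose stabilized form blocks auxin responses, had 8.68, 8.97 and 8.40 in control and 7.52, 7.66 and 7.10 in salt replicates 1, 2 and 3. The groups were well apart, and the difference of -1.26 (SE 0.19, adjusted p = 0.00575 from limma) held with each array left out (-1.40 to -1.09). Of the SAUR genes, AT4G38860 (SAUR16) went from 9.52, 9.43 and 9.57 to 8.54, 8.77 and 8.69, a difference of -0.84 (SE 0.09, adjusted p = 0.00177 from limma). AT2G46690 (SAUR32) had 8.97, 9.10 and 8.91 in control and 7.51, 8.46 and 8.30 in salt arrays. Its difference of -0.90 (SE 0.24, adjusted p = 0.0335 from limma) was -0.61 without salt replicate 1 and did not pass without control replicate 1, 2 or 3. The other 7 SAUR genes had differences between -0.33 and 0.28, and 4 of them had a mean signal below 5.45, the 30th percentile of all probe sets. Of the 12 genes 8 were named through the list of H2O2-responsive genes, of which 45.9% passed the test with salt and 34.4% rose, against 20.1% and 7.69% of the genes that are not on it.

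Other genes of the pathway were taken from lists of auxin synthesis, inactivation, perception, transport and response, of which 20 genes could be measured, 11 of them on the list of H2O2-responsive genes. In these lists 7 genes rose, 1 fell and 12 did not pass, and over all genes 11.4% rose and 12.3% fell. All 7 that rose had a probe set named only through the list of H2O2-responsive genes, so the share over all genes is not a like comparison. Of 20 listed transport genes outside the member families 5 were measured, and 4 of these rose. All 5 are on the list of H2O2-responsive genes, of which 34.4% rose, and the 4 that rose had a probe set named only through that list. AT2G17500 (PILS5), which encodes a carrier that retains auxin in the endoplasmic reticulum, had 7.99, 7.90 and 7.09 in control and 11.37, 11.10 and 10.76 in salt arrays. The difference of 3.42 (SE 0.26, adjusted p = 5.5e-04 from limma) was a 10.7-fold higher mean. ABCB4, an auxin transporter known from root hairs, had 7.19, 6.78 and 7.02 in control and 10.53, 9.23 and 8.88 in salt arrays. This difference was 2.55 (SE 0.40, adjusted p = 0.00612 from limma), and 2.06 without salt replicate 1. ABCB21, a related auxin transporter, rose by 1.72 (SE 0.24), and AT1G76520 (PILS3) rose by 0.75 (SE 0.12). WAG2, a kinase gene that acts on PIN proteins, had -0.01 (SE 0.13) at a dim mean signal of 4.21.

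In auxin synthesis 7 of 21 listed genes were measured, of which 2 rose and 1 fell. Over all genes 11.4% rose and 12.3% fell. The 2 that rose, and TAA1, had a probe set named only through the list of H2O2-responsive genes, of which 34.4% rose. AO1 (AAO1), an aldehyde oxidase gene, had 7.43, 7.24 and 7.51 in control and 9.79, 9.82 and 9.90 in salt arrays, a difference of 2.44 (SE 0.10, adjusted p = 7.6e-05 from limma). CYP79B2 encodes the enzyme that makes indole-3-acetaldoxime from tryptophan, a step shared with indolic glucosinolates and camalexin, and rose by 1.01 (SE 0.15, adjusted p = 0.00523 from limma). In the main route through indole-3-pyruvate, the flavin monooxygenase gene YUC6 had -0.34 (SE 0.10, adjusted p = 0.0475 from limma), and its call was lost without 5 of the 6 arrays. TAA1, which encodes the aminotransferase of this route, had 6.54, 6.51 and 6.87 in control and 6.01, 6.47 and 6.13 in salt arrays, with a difference of -0.44 (SE 0.15) that did not pass (adjusted p = 0.0821 from limma). YUC2, YUC4 and YUC11 had -0.19, 0.02 and 0.03, with YUC4 and YUC11 at dim mean signals of 4.64 and 5.04.

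Of 13 listed genes of conjugate hydrolysis and inactivation 4 were measured. UGT74E2, a glycosyltransferase gene for indole-3-butyric acid, was the only one that rose, with 4.76 (SE 0.31, adjusted p = 3.3e-04 from limma). Its probe set was named only through the list of H2O2-responsive genes, of which 34.4% rose, against 11.4% of all genes. ILL6, an amidohydrolase gene of the family that releases hormones from amino acid conjugates, had 8.86, 9.15 and 8.37 in control and 10.19, 9.13 and 9.12 in salt arrays. Its groups overlapped, and the difference of 0.69 (95% confidence interval -0.08 to 1.46) did not pass. None of the 18 listed genes of perception, which include the receptors, had a probe set naming that gene alone, so perception was not examined. Of 10 other auxin-responsive genes 4 were measured (HAT2, LBD16, LBD29 and ARL), with differences of -0.14 to 0.20, and 0 passed by limma (0 at an unadjusted p under 0.05).

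**Figure D4:**
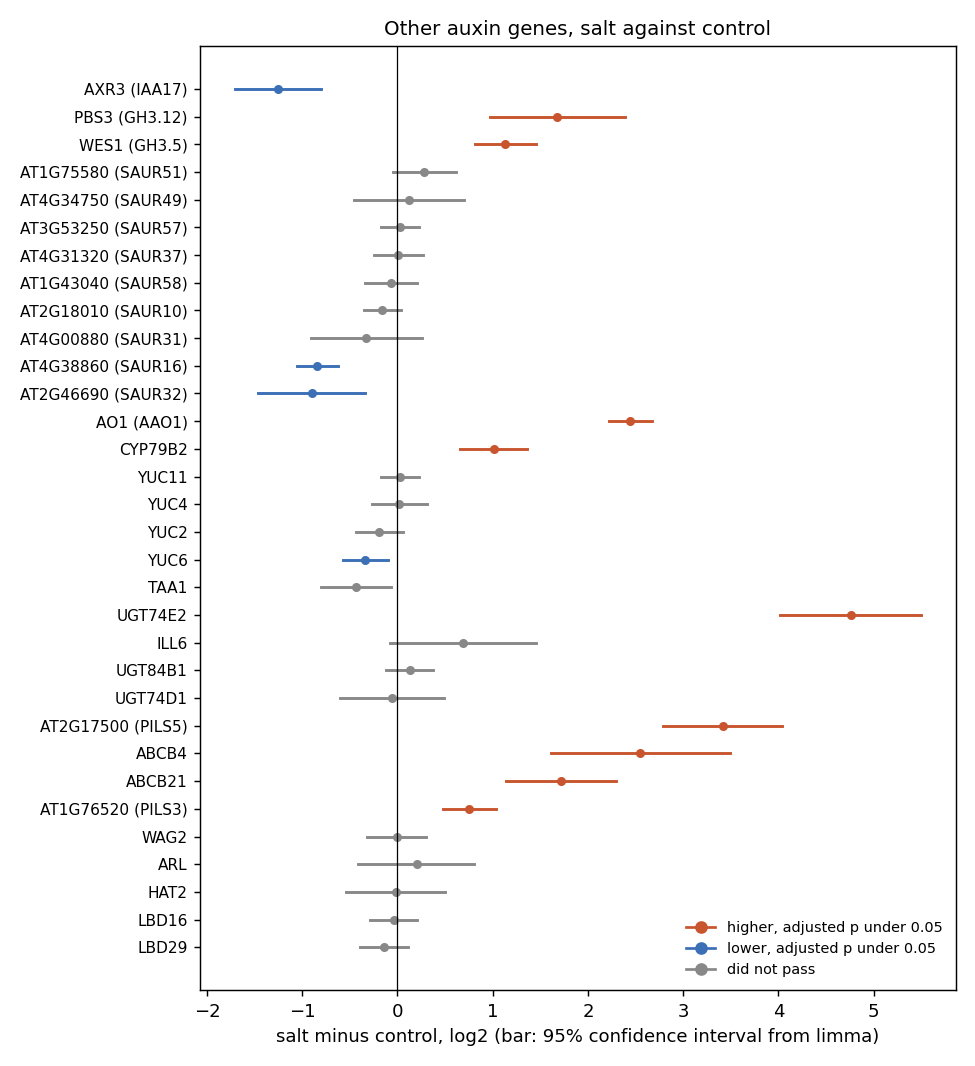
Salt minus control difference in log2 expression (points) with the 95% confidence interval from limma (bars) for 12 genes of the same families under another symbol and 20 other auxin genes, ordered from top to bottom as Aux/IAA, GH3, SAUR, synthesis, inactivation, transport and response. The largest differences are those of UGT74E2 (4.76) and AT2G17500 (3.42), and the 4 genes of the response list at the bottom all have intervals that include 0.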

How the data were processed

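The study profiled 3 control and 3 salt-treated shoot samples on Affymetrix ATH1 arrays. Array signals were processed by RMA, and the log2 values the authors deposited are 1 per probe set. GCRMA stands in the labels too, with no role, and versions are not given in the sources used here. No scan batch is given. Of 22746 probe sets that are not controls, 13513 had 1 gene in the platform annotation (13436 symbols were updated by gene ID from a TAIR10.1 table that served for names only) and 921 took their name only from the study's list of H2O2-responsive genes, which was available in part. The 503 with several genes were not used, and neither were the rest, which had no gene name in the sources used here. A gene that was not measured here may therefore still have a probe set on the array. The probe set with the highest mean represented each gene, which gave 14276 genes, and each member had 1 probe set.

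Groups were compared with limma 3.58.1 (lmFit and eBayes, R 4.3.3, two-sided, no block). Its step was tested on simulated data. Precision is limited by the number of arrays. With 3 against 3, an exact permutation test has a smallest p of 0.1, so none is reported. Alternatives were each array left out, the replicate block, median centring, quantile normalization, a filter at the 30th percentile of signal, eBayes with trend and robust estimation, array weights (statmod 1.5.0), an unmoderated test, the mean of probe sets, all probe sets, and annotation names alone. Members and lists were chosen with earlier results of these data known. In each family up to 6 genes that passed were named, filled up to 3, and in each other list up to 3, filled up to 2. Members outside this rule are named to complete the list, and AT4G38860, AT2G46690, AT1G76520, WAG2, TAA1, YUC2, YUC4, YUC11, HAT2 and LBD16 were added after their values were seen. Promoter and protein sequences were not used here. Summaries and plots were made with Python 3.11.15, pandas 2.3.3 and matplotlib 3.10.9.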

Additional observations from a re-analysis of the deposited data

How the results depend on the processing

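Quantile normalization, median centring, eBayes with trend and robust estimation, array weights, the mean of probe sets, all probe sets and the filter on dim probe sets kept all 6 calls among the members. With 1 array left out, 0 to 3 members rose and 1 to 3 fell (0 rose without control replicate 1, where 3 were higher at an unadjusted p under 0.05 by limma), and 0 to 1 were at least 2-fold lower, GH3.9 or IAA29. The unmoderated test called 0 members higher and 0 lower after adjustment (3 and 2 at an unadjusted p under 0.05). With 1 array left out GH3.1 had -0.01 to 0.27 and IAA30 -0.12 to 0.60, both below 0 only without salt replicate 1. The filter on dim probe sets left 3 GH3 members with a median difference of 0.67 instead of 0.40, since GH3.1 dropped out. Over all genes, 837 to 1701 rose and 492 to 1891 fell with 1 array left out. The unmoderated test called 581 higher and 333 lower, and over all 22746 probe sets 2645 rose and 3145 fell. Same-numbered control and salt arrays did not deviate together (correlations of deviations over genes -0.12, 0.05 and -0.14), so the numbers were not taken as pairs. With the replicate number as a block, 1398 genes rose and 1345 fell, and IAA29 did not pass (adjusted p = 0.0588 from limma). Naming by the annotation alone left out LAX3 and SAUR21. Dim signal limits IAA20, IAA30, IAA31, IAA33, IAA34 and GH3.1. Among the other auxin genes named here it likewise limits YUC4, YUC11, WAG2 and LBD29, and also 4 of the 9 SAUR genes under another symbol.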
